A study of Mus musculus with 12 samples.

Results

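Gluconeogenesis, the synthesis of glucose from lactate, glutamine, glycerol and other precursors, uses a few enzymes that glycolysis does not. The 7 genes described here encode those of its later steps, after pyruvate carboxylase, and the transporter that works with the last of them. They were chosen by symbol (Pck1, Pck2, G6pc, G6pc3, Fbp1, Fbp2 and Slc37a4), and all 7 were found, once each, among the 37681 genes of the deposited table. The 6 male C57BL/6 mice were 18 months old and untreated. Of these, 3 were TRACK mice that carried the γ-HIF1αM3 transgene (TG+; mice 43-29, 43-49 and 43-75) and 3 were wild-type littermates without it (TG−; mice 43-26, 43-50 and 43-76). The transgene encodes a constitutively active HIF1α, the oxygen-regulated subunit of hypoxia-inducible factor 1, driven by a γ-glutamyl transferase promoter in proximal tubule cells, whereas the RNA came from a slice of whole kidney cortex. From each mouse 2 libraries were sequenced, one per kidney, and they were summed, so that 3 mice were compared with 3 mice.

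In mammals, the liver and the kidney cortex release newly made glucose, and in the kidney the pathway runs in the proximal tubule. Phosphoenolpyruvate carboxykinase (Pck1 in the cytosol, Pck2 in mitochondria) makes phosphoenolpyruvate from oxaloacetate, fructose-1,6-bisphosphatase (Fbp1, and Fbp2, best known from muscle) removes a phosphate from fructose 1,6-bisphosphate, and glucose-6-phosphatase (G6pc, and the widely expressed G6pc3) frees glucose from glucose 6-phosphate, which Slc37a4 carries into the endoplasmic reticulum. The opposite reactions of glycolysis are run by pyruvate kinase, phosphofructokinase and hexokinase.

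The 7 mRNAs did not move together. In TG+ kidneys the Pck2 mRNA was 1.99-fold higher and the Slc37a4 mRNA 1.26-fold higher than in TG− kidneys, the Fbp2 mRNA was 1.57-fold lower, and the other four did not pass the test. Of the 3 abundant enzymes, Fbp1 was at a ratio of 1.00 between genotypes, G6pc at 0.796 and Pck1 at 1.44, the last with a wide scatter between mice. By the adjusted p alone (edgeR's quasi-likelihood test, Benjamini-Hochberg adjustment over all 19399 genes tested, adjusted p below 0.01), 2 of 7 members were higher, where 7.91% of all genes were, and 1 of 7 was lower, where 4.25% of all genes were, so that 3 of 7 stood against a background of 12.2% in either direction. None of the 7 passed the threshold used in the study, which also asks for a fold change above 2 or below 0.5 and which 3.98% of all genes passed; at an unadjusted p below 0.05, edgeR gave 4 of 7 members and 39.1% of all genes, and DESeq2 put 0 of 7 members and 4.47% of all genes past the study's threshold. The levels of the 3 TG+ mice lay wholly above or below those of the 3 TG− mice for 4 of 7 members, and for 44.2% of all genes. The median log2 fold change was 0.0065 over the 7 members and 0.012 over all genes tested.

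The libraries held between 21888584 and 33704850 counted reads, and the mice between 48052131 and 60506785. Each member had at least 664 reads in each mouse, the lowest count being that of Fbp2 in TG+ mouse 43-75. The Hif1a gene itself, whose reads may also include those of the transgene, was at 91.7, 109 and 86.3 CPM (read counts scaled to a common library size) in TG+ mice 43-29, 43-49 and 43-75 and at 107, 103 and 103 CPM in TG− mice 43-26, 43-50 and 43-76, with a log2 fold change of −0.12 (edgeR adjusted p = 0.343). Proximal tubule markers were abundant in all mice but lower in TG+: all 16 lay below 0 on the log2 scale, 9 passed at an adjusted p below 0.01, the median log2 fold change was −0.62, and their summed level ran from 35560 to 39130 CPM in TG+ and from 48870 to 52480 CPM in TG−. Fewer cells of a type and less RNA per cell cannot be told apart in bulk tissue. Markers of the other nephron segments had no call among 11 (3754 to 5070 CPM summed in TG+ and 4052 to 4166 CPM in TG−). Of the immune markers 8 of 10 rose (163 to 181 CPM summed in TG+ and 91.4 to 116 CPM in TG−), and so did 6 of 7 endothelial markers (552 to 594 and 321 to 422 CPM), 2 of 7 stromal markers (253 to 347.5 and 157.5 to 193 CPM) and 3 of 7 tubule injury markers (654 to 777 and 543 to 680 CPM). No marker of these lists was at 0 reads in all libraries. Whether any of these shifts takes part in the values of the gluconeogenesis enzymes was not tested.
 
The 7 enzymes covered a wide range of abundance. To compare genes with each other, the authors' RPKM (reads scaled by transcript length and library size, averaged here over the 2 kidneys of a mouse) was used, since it takes transcript length into account. In TG− cortex, Fbp1 had the highest mean RPKM (376 ± 25.1; SD, n = 3 mice here and below), followed by G6pc (307.5 ± 38.4), Pck1 (210.0 ± 67.0), Slc37a4 (67.3 ± 2.11), Fbp2 (15.6 ± 0.627), G6pc3 (8.24 ± 0.193) and Pck2 (3.06 ± 0.319). By this measure Fbp1 was rank 73, G6pc rank 96 and Pck1 rank 148 of 37681 genes, and Pck2 was rank 8887. Each neighbour in this order was separated from the next in all 3 mice without overlap, with 1 exception: the RPKM of G6pc, at least 277.3, and that of Pck1, at most 277.4, met, although G6pc was the higher of the pair within each of the 3 mice.

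In TG+ cortex the same genes took the upper and the lower places, with Fbp1 at 369 ± 14.5 RPKM, Pck1 at 296 ± 116, G6pc at 239.5 ± 23.0, Slc37a4 at 82.9 ± 2.19, Fbp2 at 9.70 ± 0.643, G6pc3 at 7.73 ± 0.101 and Pck2 at 5.95 ± 0.321. The means of Pck1 and G6pc changed places, but this came from 1 mouse: Pck1 exceeded G6pc in mouse 43-49 and in neither of the other TG+ mice. Pck2 stayed last while its distance to G6pc3 narrowed, from a ratio of mean RPKM of 2.69 in TG− mice to 1.30 in TG+ mice.

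**Figure D1:**
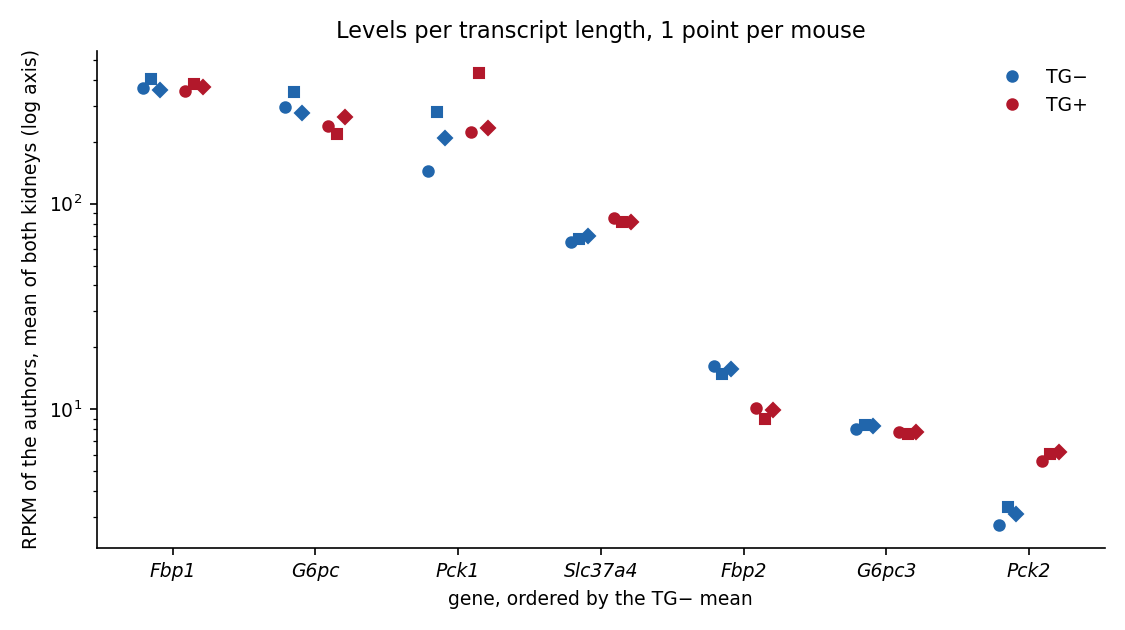
The authors' RPKM of the 7 genes (log axis), averaged over both kidneys, with 1 point for each of 3 TG− (blue) and 3 TG+ (red) mice. Fbp1, G6pc and Pck1 lie above 100 RPKM in all 6 mice, and Fbp2, G6pc3 and Pck2 below 20.

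Pck1 catalyses the step usually regarded as rate-limiting for the pathway, and its mRNA varied more between mice than that of any other member. Its level was 1668 CPM in TG+ mouse 43-29, 3185 CPM in 43-49 and 1724 CPM in 43-75, against 1041, 2015 and 1516 CPM in TG− mice 43-26, 43-50 and 43-76. The groups overlapped, since TG− mouse 43-50 lay above 2 of the TG+ mice. Means were 2192 ± 860 and 1524 ± 487 CPM, and the log2 fold change of 0.52 (SE 0.301, 95% interval −0.17 to 1.22) did not pass (edgeR adjusted p = 0.239; exact permutation p = 0.4, 2-sided). The log2 fold change depended on single mice, from 0.15 without 43-49 and 0.31 without 43-26 to 0.78 without 43-50. The authors' listing pairs mouse 43-49 with 43-50, 43-29 with 43-26 and 43-75 with 43-76. In each pair Pck1 was higher in the TG+ mouse, by 0.66, 0.68 and 0.19 on the log2 scale. With the pairs as a block, the log2 fold change was 0.51 and did not pass (SE 0.111, edgeR adjusted p = 0.0175). Each mouse gave at least 53376 reads of Pck1.

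The scatter of Pck1 lay between mice and not between the kidneys of a mouse. On the log2 scale the SD between kidneys of a mouse was 0.0696, and the SD between mice of a genotype was 0.503. In mouse 43-49 the kidneys gave 2991 and 3414 CPM, and in mouse 43-26 they gave 1070 and 1008 CPM. Among the 10181 genes with a mean of at least 10 CPM, 69 (0.678%) had a larger SD between mice than Pck1, and the median gene had an SD of 0.0842. For G6pc the same SDs were 0.105 between kidneys and 0.157 between mice, whereas for Fbp2 (0.0881 and 0.0809), Slc37a4 (0.0475 and 0.0448) and G6pc3 (0.0266 and 0.0275) mice of a genotype differed about as little as the kidneys of 1 mouse did. The largest difference between kidneys of a mouse over all 7 genes was 1.18-fold, for G6pc in mouse 43-49.

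**Figure D2:**
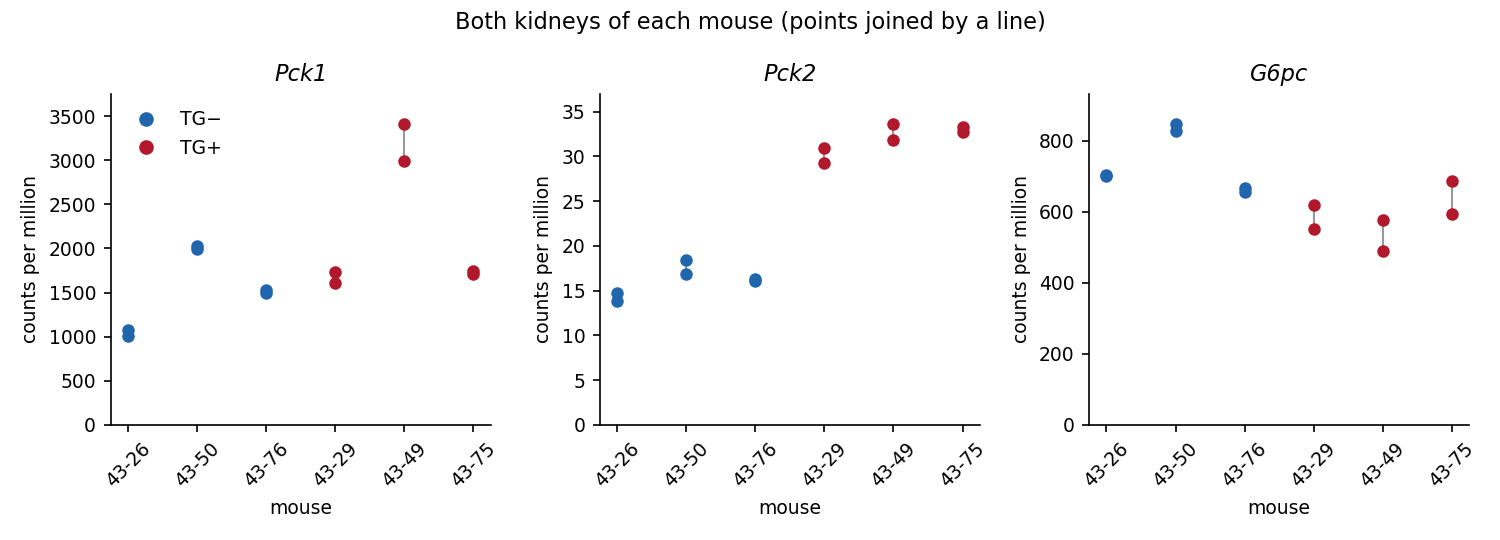
Levels of Pck1, Pck2 and G6pc in CPM in each kidney, with the kidneys of a mouse joined by a line (blue TG−, red TG+). For Pck1 both kidneys of mouse 43-49 lie near 3000 CPM or above, and for Pck2 all 6 TG+ kidneys lie above all 6 TG− kidneys.

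Pck2, the mitochondrial counterpart of Pck1, had the largest rise of the 7 genes, from a low level. Its mRNA was at 30.0, 32.7 and 33.0 CPM in TG+ mice 43-29, 43-49 and 43-75 and at 14.3, 17.7 and 16.1 CPM in TG− mice 43-26, 43-50 and 43-76. No TG− mouse reached the lowest TG+ mouse, with means of 31.9 ± 1.65 and 16.1 ± 1.72 CPM. The log2 fold change was 0.99 (SE 0.088, 95% interval 0.79 to 1.20, edgeR adjusted p = 2.80e-04), which is just under the 2-fold limit of the study's threshold; the interval of the fold change, 1.73 to 2.29, includes that limit. The value passed the limit without mouse 43-29 (1.02) or without mouse 43-50 (1.07). Measured as RPKM, Pck2 made up 2.14% ± 0.646 of the sum of Pck1 and Pck2 in TG+ mice and 1.51% ± 0.338 in TG− mice. These shares overlapped. For the ratio of Pck2 to Pck1 read counts the exact permutation p was 0.3 (adjusted 0.3 over the 7 ratios examined). By the GENCODE M21 annotation, 53 exon bases of Pck2 are also covered by the antisense gene Gm10876, for which no value was used here; how the counting treated strand is not given in the sources used here.

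Because the transgene encodes an active HIF1α and the cAMP pathway and ATF4 are known regulators of this gene family, the 250 bases before the RefSeq transcript start (build GRCm38.p6) are shown for the member with the largest rise, for the member that fell and for Pck1. Capitals mark matches, on either strand, to the hypoxia response element core (ACGTG or GCGTG), to the core of the cAMP response element (TGACG) and to a C/EBP-ATF4 composite core (TGATGNAA); an ACGTG inside the E-box CACGTG is capitalised together with it.
Pck2, chr14:55540016-55540265, + strand: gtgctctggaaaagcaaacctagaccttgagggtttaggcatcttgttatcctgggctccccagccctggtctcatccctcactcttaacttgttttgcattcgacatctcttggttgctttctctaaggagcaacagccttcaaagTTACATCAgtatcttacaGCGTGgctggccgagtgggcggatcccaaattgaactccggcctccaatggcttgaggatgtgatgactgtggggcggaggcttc
Fbp2, chr13:62858401-62858650, − strand: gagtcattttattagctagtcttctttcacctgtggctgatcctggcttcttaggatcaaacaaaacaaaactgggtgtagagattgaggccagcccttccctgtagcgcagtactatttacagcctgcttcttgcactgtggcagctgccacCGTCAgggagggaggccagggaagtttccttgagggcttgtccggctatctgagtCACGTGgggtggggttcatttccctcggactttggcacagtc
Pck1, chr2:173152823-173153072, + strand: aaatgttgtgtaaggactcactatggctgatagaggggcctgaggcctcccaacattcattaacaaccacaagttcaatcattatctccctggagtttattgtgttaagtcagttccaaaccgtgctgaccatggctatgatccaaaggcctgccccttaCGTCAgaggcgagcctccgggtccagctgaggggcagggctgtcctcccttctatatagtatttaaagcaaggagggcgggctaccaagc
All 7 genes had a RefSeq window, 9 windows in all since Slc37a4 had 3. ACGTG or GCGTG occurred in a window of 3 of the 7 genes (3 of 9 windows, 33.3%, against 38.6% of 32851 mouse windows of this length), namely Pck2, which rose, Fbp2, which fell, and G6pc3, which did not pass the test. TGACG occurred in 3 of the 7 genes, Pck1, Fbp2 and Slc37a4 (4 of 9 windows, 44.4%, against 17.8% of all windows). TGATGNAA occurred in Pck2 and G6pc (2 of 9 windows, 22.2%, against 3.45% of all windows). These matches are a description of the letters in the windows.

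Fbp1 was the steadiest of the abundant enzymes. Its mRNA was at 1005, 1080 and 1044 CPM in TG+ mice 43-29, 43-49 and 43-75 and at 1007, 1119 and 989 CPM in TG− mice 43-26, 43-50 and 43-76. The groups overlapped throughout. The log2 fold change was 0.0065 (SE 0.065, edgeR adjusted p = 0.955), and its 95% interval, a fold change between 0.905 and 1.12, holds no change as large as that of Pck2, Fbp2 or Slc37a4.

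Fbp2, a neighbour of Fbp1 on chromosome 13 with 6330 bases between the genes (GENCODE M21, GRCm38; Fbp2 at chr13:62836877-62858422 and Fbp1 at chr13:62864753-62888282, both on the − strand), fell. Its mRNA was at 13.7, 11.97 and 13.2 CPM in TG+ mice 43-29, 43-49 and 43-75 and at 21.1, 19.5 and 20.6 CPM in TG− mice 43-26, 43-50 and 43-76. The groups did not overlap, with TG+ the lower. The log2 fold change was −0.65 (SE 0.075, 95% interval −0.83 to −0.48, edgeR adjusted p = 9.21e-04). With libraries centred on the proximal tubule markers, whose median was −0.62, it was −0.12 and did not pass (edgeR adjusted p = 0.238). The share of Fbp2 in the summed RPKM of Fbp1 and Fbp2 was 2.57% ± 0.257 in TG+ mice and 4.01% ± 0.388 in TG− mice, without overlap. The ratio of Fbp2 to Fbp1 read counts did not overlap either. Its exact permutation p was 0.1, the smallest that 3 against 3 mice allow (adjusted 0.14 over 7 ratios). Of skeletal muscle, in which Fbp2 is best known, 5 of 6 marker genes had too few reads to be tested, at most 34 in a mouse, and the one tested, Acta1, did not pass. The highest of these counts came from TG− mouse 43-26 (Ckm 34, Myh4 31 and Tnnt3 27 reads). Without this mouse the log2 fold change of Fbp2 was −0.63 (edgeR adjusted p = 0.0040).

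G6pc, which encodes the catalytic subunit of glucose-6-phosphatase in liver and kidney, was lower in every TG+ mouse but did not pass the test. Its mRNA was at 582, 529 and 640 CPM in TG+ mice 43-29, 43-49 and 43-75 and at 703, 837 and 661 CPM in TG− mice 43-26, 43-50 and 43-76. The groups did not overlap, but the highest TG+ mouse lay close to the lowest TG− mouse. Means were 584 ± 55.4 and 733 ± 91.8 CPM, with a log2 fold change of −0.33 (SE 0.104, 95% interval −0.57 to −0.09, edgeR adjusted p = 0.0512). Mouse 43-49, which had the highest Pck1 level of all mice, had the lowest G6pc level. G6pc3 was at 52.3, 50.8 and 51.8 CPM in the TG+ mice and at 52.2, 54.6 and 54.1 CPM in the TG− mice, in the same order, with a log2 fold change of −0.06 (95% interval −0.17 to 0.06, edgeR adjusted p = 0.442).

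Slc37a4, the glucose 6-phosphate transporter on which glucose-6-phosphatase depends, rose slightly. Its mRNA was at 384, 366 and 363 CPM in TG+ mice 43-29, 43-49 and 43-75 and at 285, 294 and 303 CPM in TG− mice 43-26, 43-50 and 43-76. The groups did not overlap, and each was tight. The log2 fold change was 0.33 (SE 0.053, 95% interval 0.21 to 0.46, edgeR adjusted p = 0.0037). With any 1 of the mice other than 43-49 left out, the adjusted p was between 0.0138 and 0.0175, past the limit of 0.01, while the log2 fold change stayed between 0.30 and 0.35. The ratio of Slc37a4 to G6pc reads was 0.66, 0.69 and 0.57 in the TG+ mice and 0.41, 0.35 and 0.46 in the TG− mice, 1.58-fold higher in TG+ without overlap (exact permutation p = 0.1, the smallest this design allows; adjusted 0.14 over 7 ratios).

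**Figure D3:**
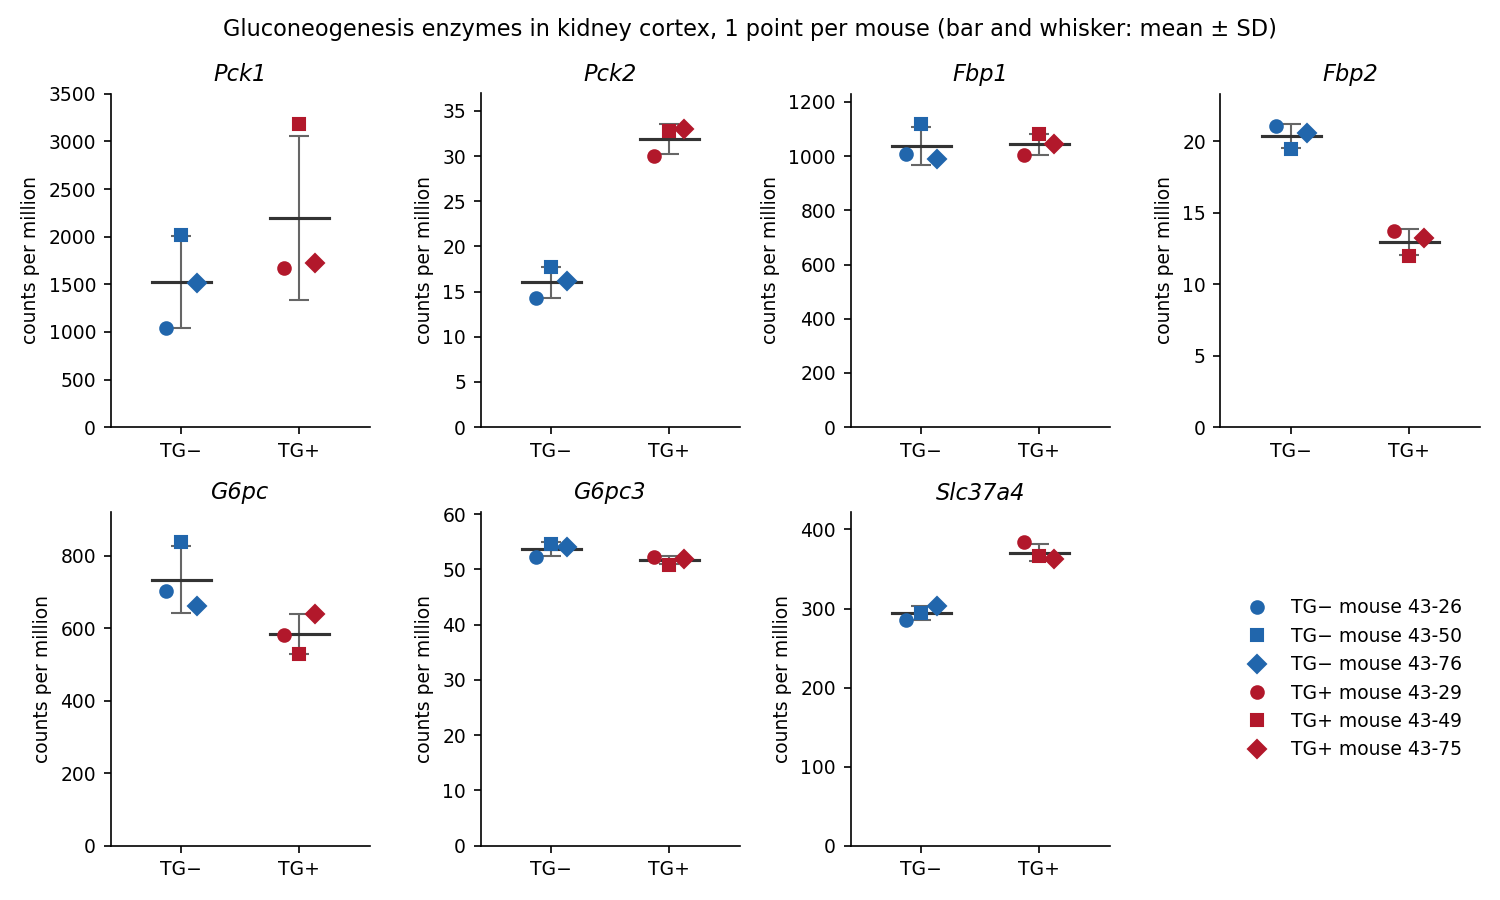
Level of each of the 7 genes in CPM, with 1 point per mouse (blue TG−, red TG+) and the mean ± SD of 3 mice as bar and whisker; all axes start at 0. Pck2 and Slc37a4 are higher and Fbp2 is lower in all TG+ mice, Fbp1 and G6pc3 overlap, and Pck1 scatters from 1041 to 3185 CPM.

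Other scalings moved all genes together, the members with them. When libraries were scaled by their total alone, the median of all genes moved from 0.012 to 0.13 on the log2 scale and G6pc3 was at 0.065. When they were centred on the proximal tubule markers, the median of all genes moved to 0.54, Fbp1 (0.54), G6pc (0.20) and G6pc3 (0.48) were above 0 and Fbp2 was at −0.12, its call lost. On that scale 5 of 7 members passed an adjusted p of 0.01, as did 66.9% of all genes. Relative to the median gene the members lay alike under both scalings, with G6pc at −0.34, G6pc3 at −0.068, Fbp2 at −0.67 and Fbp1 at −0.0047 and −0.0037.

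Most of the glycolytic enzymes that run the 3 opposing steps rose. Of the 10 genes for hexokinases, phosphofructokinases and pyruvate kinases, 7 were higher in TG+ at an adjusted p below 0.01 and 0 were lower, with a median log2 fold change of 2.08. Among these, the hexokinases Hk2 (log2 fold change 6.16, from 0.630 to 44.8 CPM) and Hk1 (0.63), the phosphofructokinases Pfkp (3.34) and Pfkl (2.12), and the pyruvate kinases Pkm (2.57) and Pklr (2.03) rose. Pfkm (−0.21, edgeR adjusted p = 0.127), Hkdc1 (0.067, edgeR adjusted p = 0.714) and Hk3 (0.79, edgeR adjusted p = 0.0105) did not pass. Of the 5 genes for the enzymes that make or break fructose 2,6-bisphosphate, the metabolite that activates phosphofructokinase and inhibits fructose-1,6-bisphosphatase, Pfkfb3 rose (2.35) and the other four did not pass.

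Set against these enzymes within each mouse, a ratio that does not depend on how libraries are scaled, the ratio of Fbp1, G6pc or Pck1 to the enzymes of the opposing step was lower in TG+ at each of the 3 steps. Most genes of the denominators rose, while Fbp1, G6pc and Pck1 themselves did not pass the test (fold changes of 1.00, 0.796 and 1.44) and Pck2, which is not in these ratios, rose. The ratio of Fbp1 reads to the summed phosphofructokinase reads was 1.49, 1.98 and 1.62 in TG+ mice 43-29, 43-49 and 43-75 and 7.64, 8.42 and 7.62 in TG− mice 43-26, 43-50 and 43-76, 4.69-fold lower in TG+. For G6pc against the summed hexokinases the ratio was 2.99, 2.80 and 3.33 in TG+ and 7.10, 8.97 and 6.86 in TG−, 2.50-fold lower. For Pck1 against the summed pyruvate kinases it was 2.46, 5.32 and 2.81 in TG+ and 8.90, 16.5 and 12.7 in TG−, 3.70-fold lower. None of the 3 ratios overlapped between genotypes, and each had an exact permutation p of 0.1 (2-sided, the smallest this design allows; adjusted 0.14 over 7 ratios). In all 6 mice the gluconeogenic gene still had more reads than the enzymes of the opposing step together. These ratios compare reads and not molecules, since the transcripts differ in length.

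**Figure D4:**
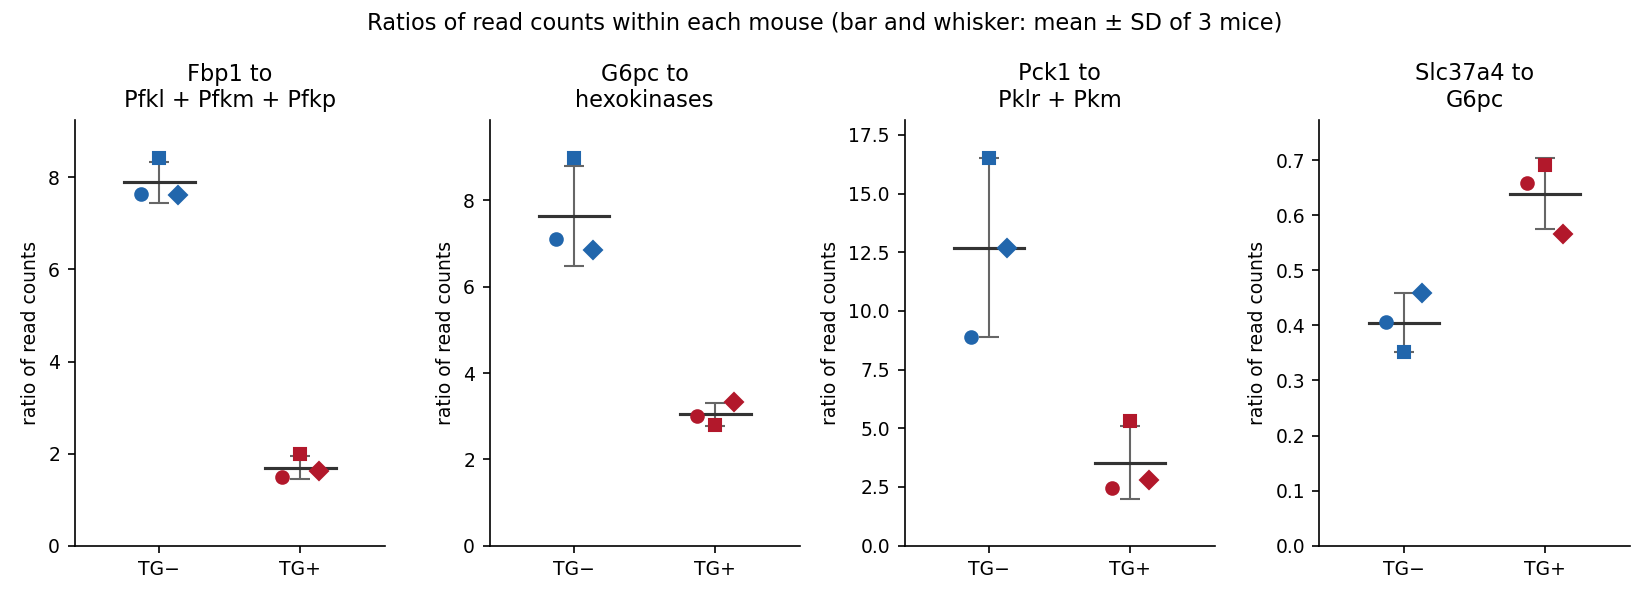
Ratios of read counts within each mouse, with the mean ± SD of 3 mice (blue TG−, red TG+; all axes start at 0). The 3 ratios of a gluconeogenic gene to the enzymes of the opposing step are lower in all TG+ mice, with Fbp1 to phosphofructokinases at 1.49 to 1.98 against 7.62 to 8.42, and the ratio of Slc37a4 to G6pc is higher.

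Most genes for the steps that both pathways share rose. Of the 8 genes for reversible steps and glucose export, 6 rose and 0 fell, with a median log2 fold change of 1.06. These were enolase Eno1 (2.42), glucose-6-phosphate isomerase Gpi1 (2.36), phosphoglycerate kinase Pgk1 (1.56), phosphoglycerate mutase Pgam1 (1.31), Gapdh (0.82) and triosephosphate isomerase Tpi1 (0.43). Tpi1 passed only without 43-49 when a mouse was left out (edgeR adjusted p between 0.0143 and 0.0221 without any other). The glucose exporter Slc2a2 did not pass, at 276 ± 22.8 CPM in TG+ and 244 ± 5.71 CPM in TG− (log2 fold change 0.18, edgeR adjusted p = 0.101). Several genes of this group, Gapdh, Eno1, Pgk1, Tpi1 and Pgam1 among them, and also Ldha and Pkm, have near-identical copies elsewhere in the genome, and how such reads were assigned is not given in the sources used here.

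**Figure D5:**
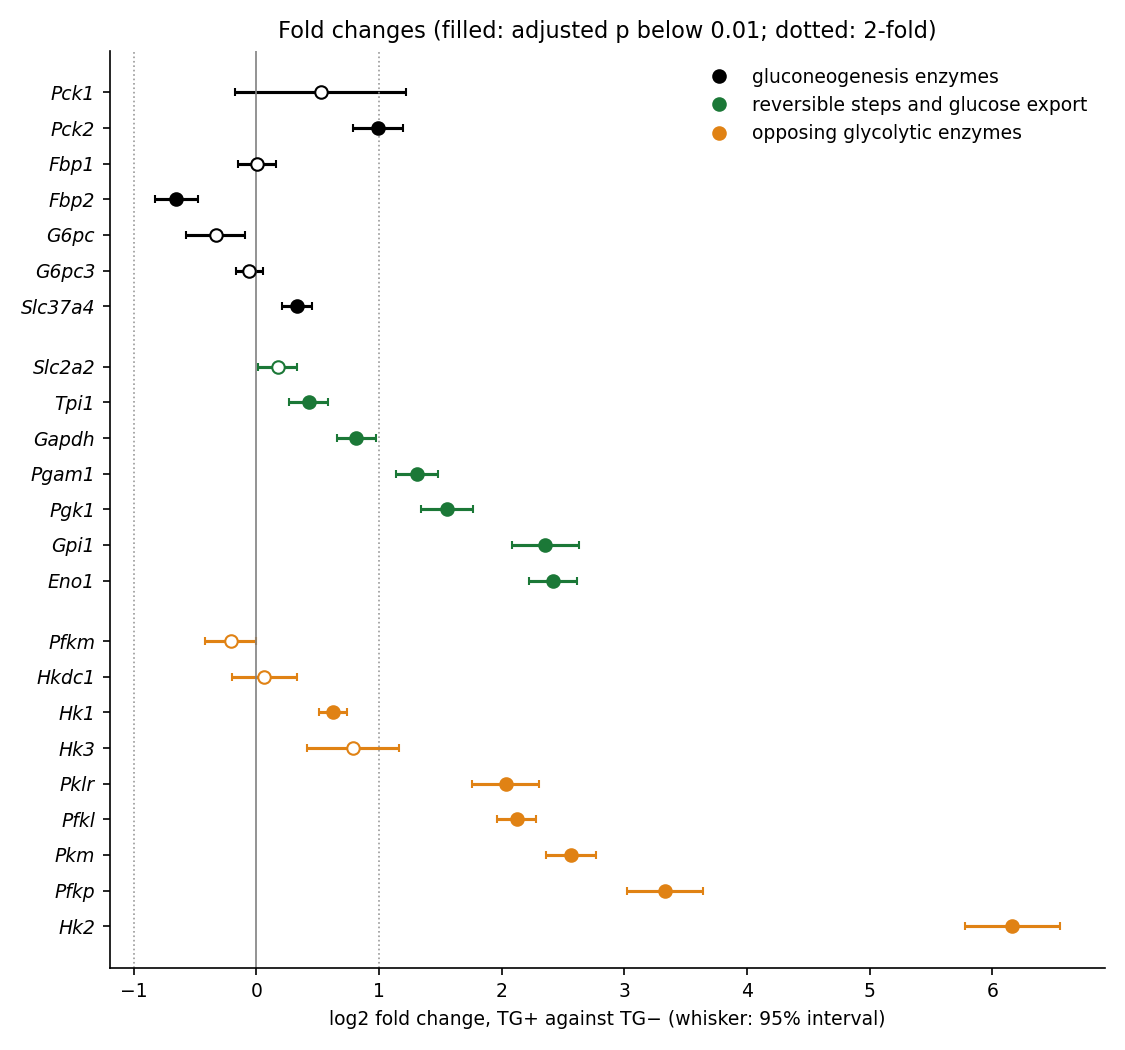
Log2 fold changes of TG+ against TG− mice with 95% intervals for the 7 gluconeogenesis enzymes (black), 7 genes of reversible steps and glucose export (green) and 9 glycolytic enzymes of the opposing steps (orange); filled points have an adjusted p below 0.01. The members lie between −0.65 and 0.99, whereas Eno1, Gpi1, Pfkl, Pfkp, Pkm, Pklr and Hk2 lie above 2.

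Of the 18 genes that bring carbon into the pathway, 3 rose and 2 fell. The median log2 fold change was −0.13, with 13 of 18 below 0. Pcx, the pyruvate carboxylase that starts the route from lactate, was at 839 ± 18.5 CPM in TG+ and 789 ± 85.4 CPM in TG− (log2 fold change 0.089, edgeR adjusted p = 0.463). Among the genes that rose were lactate dehydrogenase Ldha (1.41) and the glutamine transporter Slc38a3 (1.08). Alanine aminotransferase Gpt fell by 1.19, from 40.2 ± 2.18 to 17.6 ± 3.14 CPM, while the more abundant alanine aminotransferase Gpt2 was at 112 ± 4.78 CPM in TG− and 168 ± 30.9 CPM in TG+ (log2 fold change 0.58, edgeR adjusted p = 0.0119; DESeq2 adjusted p = 6.03e-05) and is named here after its values were seen. The mitochondrial aspartate aminotransferase Got2 fell by 0.38 on the log2 scale. With a mouse left out, Slc38a3 did not pass without 43-50, 43-75 or 43-76 (edgeR adjusted p = 0.0186, 0.0138 and 0.0227), and Got2 did not pass without 43-76 (edgeR adjusted p = 0.0121). Of 17 regulators of the pathway, 1 passed: Pth1r, the receptor for parathyroid hormone, fell by 0.40 (edgeR adjusted p = 0.0071). With any 1 mouse left out, the adjusted p of Pth1r lay between 0.0123 and 0.0243, past the limit, and the only regulators that passed were Ppara without 43-26 (−0.72, edgeR adjusted p = 0.0078) and Esrra without 43-49 (−0.53, edgeR adjusted p = 0.0068), both lower in TG+ and named here after their values were seen. DESeq2 called 1 regulator higher and 5 lower, Pth1r among them, where it called 19.5% of all genes and edgeR 12.2%. The median of the regulators was −0.18, with 13 of 17 below 0.

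Genes whose levels over the 6 mice were most like those of a member were sought among 10180 others with a mean of at least 10 CPM, by the root-mean-square difference of centred log2 CPM. For Pck2 these were Slc20a1 (0.0554), Lrp5 (0.0584) and Gys1 (0.0807). For Fbp2 they included Cyp2j13 (0.0401) and Slc47a1 (0.0411), and for Slc37a4 they were 2510039O18Rik (0.0231), Ppme1 (0.0235) and Ostf1 (0.0275). Each of these genes differs between the genotypes in the direction of its member, which the measure of likeness favours.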

How the data were processed

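Kidney cortex RNA of 6 mice, 2 kidneys each, was sequenced by the authors (51-base single-end reads, TruSeq kit) and, per the study's methods, processed mainly with the Tuxedo tools. The submitters' processing notes name the build mm9, and the annotation, counter and strand setting are not given in the sources used here. The authors deposited read counts per Ensembl gene, without normalization, and RPKM values, scaled by the authors, for each of the 12 libraries. The fold changes, p-values and log2 columns of the authors' own comparison were not used.

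Counts of both kidneys were summed per mouse (48052131 to 60506785 reads). The 19399 genes that passed edgeR's filterByExpr were TMM-normalized and compared between 3 TG+ and 3 TG− mice by the quasi-likelihood test of edgeR 4.0.16 (R 4.3.3 and limma 3.58.1), with Benjamini-Hochberg adjustment. CPM are counts scaled to the TMM-normalized total. A gene rose or fell at an adjusted p below 0.01, and the study's threshold adds a fold change above 2 or below 0.5. Ratios of counts within a mouse were compared by exact 2-sided permutation over the 20 assignments, adjusted over 7 ratios. The procedure was tested on simulated data.

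Named are the 7 members, genes of each pathway list with an adjusted p below 0.01 or that carry a step alone (such as Pcx and Slc2a2), the opposing enzymes, and the 3 genes most like each member that passed. A few genes that this rule names are not reported here. The members and lists were chosen with earlier results of these data known. Symbols came from GENCODE M21 (GRCm38), matched by Ensembl ID for 32642 of 37681 genes, and promoter windows from RefSeq (GRCm38.p6), whose coordinates are not those of the counts' build. Alternatives were DESeq2 1.42.0, 4 other scalings, no filter, kidneys as libraries, a block for pairs, leaving out each mouse and an adjusted p of 0.05. Plots were drawn with matplotlib 3.10.9 in Python 3.11.15, and tables used pandas 2.3.3, scipy 1.17.1 and numpy 2.4.6.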

Additional observations from a re-analysis of the deposited data

How the results depend on the processing

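The 3 members called at an adjusted p below 0.01 were 5 (with 66.9% of all genes) when libraries were centred on proximal tubule markers, where Pck1 (1.07), Fbp1 (0.54) and G6pc3 (0.48) passed, G6pc (0.20) and G6pc3 turned positive and Fbp2 (−0.12, edgeR adjusted p = 0.238, the highest over its alternatives) did not pass. Members past the study's threshold, 0 in the main analysis, were 2 with that centring (with 15.5% of all genes), 1 (Pck2) with library size alone (4.9% of all genes) or each kidney as its own library (5.22%), and 0 to 1 with a mouse left out (2.53% to 3.41%). Fbp1, whose main value of 0.0065 is close to 0, was negative with DESeq2 (−0.0060), upper-quartile factors (−0.0064), median centring (−0.0070) and without 43-26 (−0.017), 43-49 (−0.024), 43-75 (−0.0066) or 43-76 (−0.029), though 0.061 without 43-50, and G6pc3 was positive with library size alone (0.065). With each kidney as its own library, which treats the 2 kidneys of a mouse as independent although they share the animal, 33.2% of all genes passed. G6pc was among them (−0.32, edgeR adjusted p = 0.0056). Over all alternatives the adjusted p of G6pc ran from 0.0056 to 0.128. Pathway genes called were 20 in the main analysis (17 higher, 3 lower), where 12.2% of all genes were called. They were 45 with proximal tubule centring (44 higher, 1 lower, with 66.9% of all genes) and 36 with kidneys as libraries (23 higher, 13 lower, with 33.2%). DESeq2 gave 20 higher and 10 lower, with 19.5% of all genes called. With proximal tubule centring the median of all genes moved to 0.54. The cause of the other changes was not tested. Of 98 member values under alternatives, 79 kept their direction and side of the threshold, 6 lost a call, 4 gained one and 10 changed sign (1 of them, G6pc3, also gained a call); each of the 7 ratios moved by less than the larger of its SDs in TG+ and TG−.

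The deposited table's name lists the mice in pairs (43-49 with 43-50, 43-29 with 43-26, 43-75 with 43-76). Deviations from the group means correlated at 0.298, 0.345 and −0.0186 within these pairs, and 43-75 did not correlate best with 43-76, so the pairs were not taken as paired. With the pairs as a block, 3 members had an adjusted p below 0.01 (13.2% of all genes) and 0 passed the study's threshold (4.26%). Pck1 was higher in the TG+ mouse of each pair (by 0.66, 0.68 and 0.19 on the log2 scale, in the order above) and was at a log2 fold change of 0.51 (edgeR adjusted p = 0.0175; 0.0076 to 0.686 over all its alternatives), and no member's call changed. Each member had at least 664 reads in each mouse.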
